A study of Mus musculus with 3 samples.

Results

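The histone mark H3K36me3 was followed over 9 genes of TGF-beta, activin and BMP signalling in sorted epithelium of the mouse fetal pancreas. The genes were chosen by Ensembl identifier from a list that pairs each identifier with a symbol, and all 9 were found among the 24318 deposited rows that carry an identifier. They are the type II receptors Tgfbr2, Acvr2a and Acvr2b, the type I receptors Tgfbr1 and Bmpr1a, and the Smads Smad2, Smad3, Smad4 and Smad7. Per the labels, the embryos were wild-type C57BL/6, and pancreatic cells labelled for EpCAM, a surface protein of epithelia, were sorted on a flow cytometer at 3 stages: E11.5, then E13.5, then E15.5. The mark was profiled by CUT&Tag, which tethers a transposase to chromatin through an antibody against H3K36me3 and sequences the fragments released. There was 1 library per stage, so each difference below is a size in these 3 libraries with no replicate check, and no p-value is given. The labels give a mean of 20000000 reads for a sample, but the depth behind each value in the files is unknown. The libraries come from bulk cells, so fewer cells carrying the mark and less mark per cell cannot be told apart. Since the rows carry no symbols, the sorted cells were not checked against epithelial markers here.

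Ligands of this family bind a type II receptor, which phosphorylates a type I receptor, which in turn phosphorylates receptor-activated Smads. Tgfbr2 with Tgfbr1 binds TGF-beta and signals through Smad2 and Smad3. Acvr2a and Acvr2b serve activins, nodal-related ligands and BMPs, and Bmpr1a is a BMP type I receptor that signals through other Smads than those described here. Smad4 is the common partner that all of these complexes use in the nucleus, and Smad7 is an inhibitor that the pathway itself induces. In the developing pancreas, activin and TGF-beta signals are known to influence the balance of endocrine, exocrine and ductal cells. H3K36me3 is laid down over the bodies of genes as they are transcribed and is usually low at their starts.

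The deposited tables give 3 signal columns per gene, headed GB, PR and SE, whose abbreviations no source used here spells out. GB is the mean coverage over a window whose length differs by gene. PR and SE are means over windows of 6000 and 12000 positions, and the SE window holds the PR window. How long each GB window is follows from the values themselves, as described under the processing of the data. For Tgfbr2 it was 87669 positions and for Acvr2a 89156, both equal to the length of the gene in RefSeq. For Smad3 it was 111228 positions, for Smad4 69001 and for Smad7 28570, each within 2 bases of the RefSeq length, as was Tgfbr1 with 61703. For Acvr2b it was 39971, which equals the span from the start in the RefSeq promoter table to the end of the gene, whose outermost RefSeq length is 40566. Smad2 had 70047 positions against 70659 in RefSeq and Bmpr1a 91479 against 92276, at most 0.866% apart. Among all rows with a recovered length, between 0.565 and 1.32% lie within 2% of the RefSeq length of any given member. GB is therefore read here as the whole gene, and the lengths go with the symbols. Where PR and SE lie along the gene was not established. Levels were also compared after quantile normalization, which gives the libraries a common distribution.

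In the mouse build GRCm38.p6, the NCBI name of the mm10 build that the labels give, Smad3 (ENSMUSG00000032402) lies at chr9:63646766-63757994 on the minus strand, Tgfbr2 (ENSMUSG00000032440) at chr9:116087695-116175363 on the minus strand and Acvr2b (ENSMUSG00000061393) at chr9:119401583-119442148 on the plus strand. Tgfbr1 (ENSMUSG00000007613) lies at chr4:47353222-47414926 on the plus strand, Acvr2a (ENSMUSG00000052155) at chr2:48814109-48903264 on the plus strand and Bmpr1a (ENSMUSG00000021796) at chr14:34411061-34503336 on the minus strand. The GB windows of these genes span these coordinates in full or nearly so, exons, introns and UTRs together. The bases just before the start are shown for the genes on which the results below turn: Acvr2a, which had the highest PR of the 9 at E15.5, Tgfbr2, the only gene with its highest GB in the middle library, and Smad3, which had the largest summed gain over its body. They come from the RefSeq promoter table of GRCm38.p6, 250 bases before the start, 5′ to 3′ on the strand of the gene. The capitals mark CAGAC (or GTCTG, its other strand), the short box that Smad3 and Smad4 bind. The palindrome GGCGCC, a GC-rich box bound by Smads of the BMP branch, was searched too, and the motifs share no position here.
Acvr2a: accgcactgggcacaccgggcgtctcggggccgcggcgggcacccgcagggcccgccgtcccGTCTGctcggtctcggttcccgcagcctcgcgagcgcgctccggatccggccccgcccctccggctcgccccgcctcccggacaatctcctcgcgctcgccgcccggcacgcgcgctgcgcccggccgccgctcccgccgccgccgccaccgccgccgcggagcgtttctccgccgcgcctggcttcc
Tgfbr2: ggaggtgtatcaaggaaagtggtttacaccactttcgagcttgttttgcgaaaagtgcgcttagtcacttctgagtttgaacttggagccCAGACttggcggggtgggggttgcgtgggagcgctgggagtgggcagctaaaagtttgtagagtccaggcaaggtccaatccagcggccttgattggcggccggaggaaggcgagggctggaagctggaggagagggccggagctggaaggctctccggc
Smad3: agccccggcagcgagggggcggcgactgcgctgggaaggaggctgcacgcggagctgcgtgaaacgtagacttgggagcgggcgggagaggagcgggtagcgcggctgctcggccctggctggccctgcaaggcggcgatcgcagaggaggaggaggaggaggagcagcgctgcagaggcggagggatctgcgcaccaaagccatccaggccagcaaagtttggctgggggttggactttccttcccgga
The stretch before Acvr2a is chr2:48813859-48814108, that before Tgfbr2 chr9:116175364-116175613 and that before Smad3 chr9:63757995-63758244. Acvr2a and Tgfbr2 have 1 CAGAC box each, Smad3 has 0, and GGCGCC is in none of these 3 windows. Of the 32851 promoters in the table, 42.2% have a CAGAC box and 9.59% a GGCGCC within the same 250 bases. CG dinucleotides number 49 before Acvr2a, 22 before Smad3 and 12 before Tgfbr2, against a median of 6 over the table. Whether the PR window covers these bases is unknown. The table held 6 of the 9 genes.

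Body signal of the Smads separated at E15.5. Smad3, which carries TGF-beta and activin signals to the nucleus, had GB of 0.00644, 0.00776 and 0.0216 in stage order (E11.5 first), in deposited units. Its percentile among all identified rows went from 67.4 through 77.7 to 91.0. Among rows with a GB window of 0.5 to 2 times its own length, called rows of like length here, it stood at percentile 79.3, 91.1 and 99.5. Smad7, the inhibitor, had GB of 0.00615, 0.00505 and 0.0260 in stage order, the last being the highest body value of the 9 genes at any stage. Its percentiles were 65.3, 58.4 and 93.2 among all rows and 59.2, 49.5 and 98.0 among rows of like length. Smad3 was thus at the top of its length class at E15.5 and above the middle throughout, whereas Smad7 lay near the middle of its class at both earlier stages.

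Smad2 and Smad4 did not share this pattern. Smad2, the close relative of Smad3, had GB of 0.00667, 0.00523 and 0.00399 in stage order, the only steady decline among the 9 genes. Its percentile among rows of like length was 75.5, 60.2 and 45.8, and among all rows 68.9, 60.1 and 51.9. Smad4, the common partner, had GB of 0.00555, 0.00464 and 0.00705, at percentiles 60.8, 54.5 and 68.0 among all rows and 61.9, 50.9 and 75.4 in its length class. At E11.5 the 4 Smads lay close together, between 0.00555 and 0.00667. At E15.5 they ran from 0.00399 for Smad2 to 0.0260 for Smad7. Over the whole table, GB values of genes of such lengths were also more spread at E15.5, as given below. Smad4 (ENSMUSG00000024515, chr18:73634790-73703791), Smad7 (ENSMUSG00000025880, chr18:75367365-75395935) and Smad2 (ENSMUSG00000024563, chr18:76241090-76311748) lie near each other on chromosome 18, and their profiles over the stages differed.

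Among the type II receptors, Acvr2b had the strongest body signal. Its GB was 0.0106, 0.00822 and 0.0140 in stage order, at percentiles 85.7, 79.8 and 84.1 among all rows and 91.1, 83.8 and 92.2 among rows of like length. It was the highest of the 9 genes at both E11.5 and E13.5 and the third highest at E15.5. Acvr2a, its paralog with overlapping ligands, had much lower values of 0.00264, 0.00343 and 0.00552, at percentiles 33.3, 41.2 and 61.0 among all rows and 16.9, 29.2 and 67.3 in its length class. Acvr2a was below Acvr2b at every stage. Tgfbr2, the TGF-beta type II receptor, was highest in the middle library, with 0.00395, 0.00691 and 0.00394. Its percentiles were 46.2, 72.8 and 51.6 among all rows and 39.1, 82.9 and 47.5 in its length class.

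The type I receptors had low body signal. Tgfbr1 had the lowest GB of the 9 genes at E11.5, 0.00159, and then 0.00373 and 0.00402. Its percentiles were 24.2, 44.5 and 52.1 among all rows and 5.75, 33.9 and 45.2 among rows of like length. Bmpr1a was level in deposited units, with 0.00258, 0.00257 and 0.00269, and had the lowest GB of the 9 genes at E13.5 and E15.5. It stood at percentiles 32.7, 32.1 and 42.5 among all rows and 15.9, 13.7 and 29.3 in its length class. Tgfbr1 and Bmpr1a never passed the middle of their length class at any stage. The order of the 9 genes at E15.5 ran from Bmpr1a through Tgfbr2, Smad2, Tgfbr1, Acvr2a, Smad4, Acvr2b and Smad3 to Smad7. With 1 library per stage there is no spread by which to separate neighbours in this order.

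**Figure D1:**
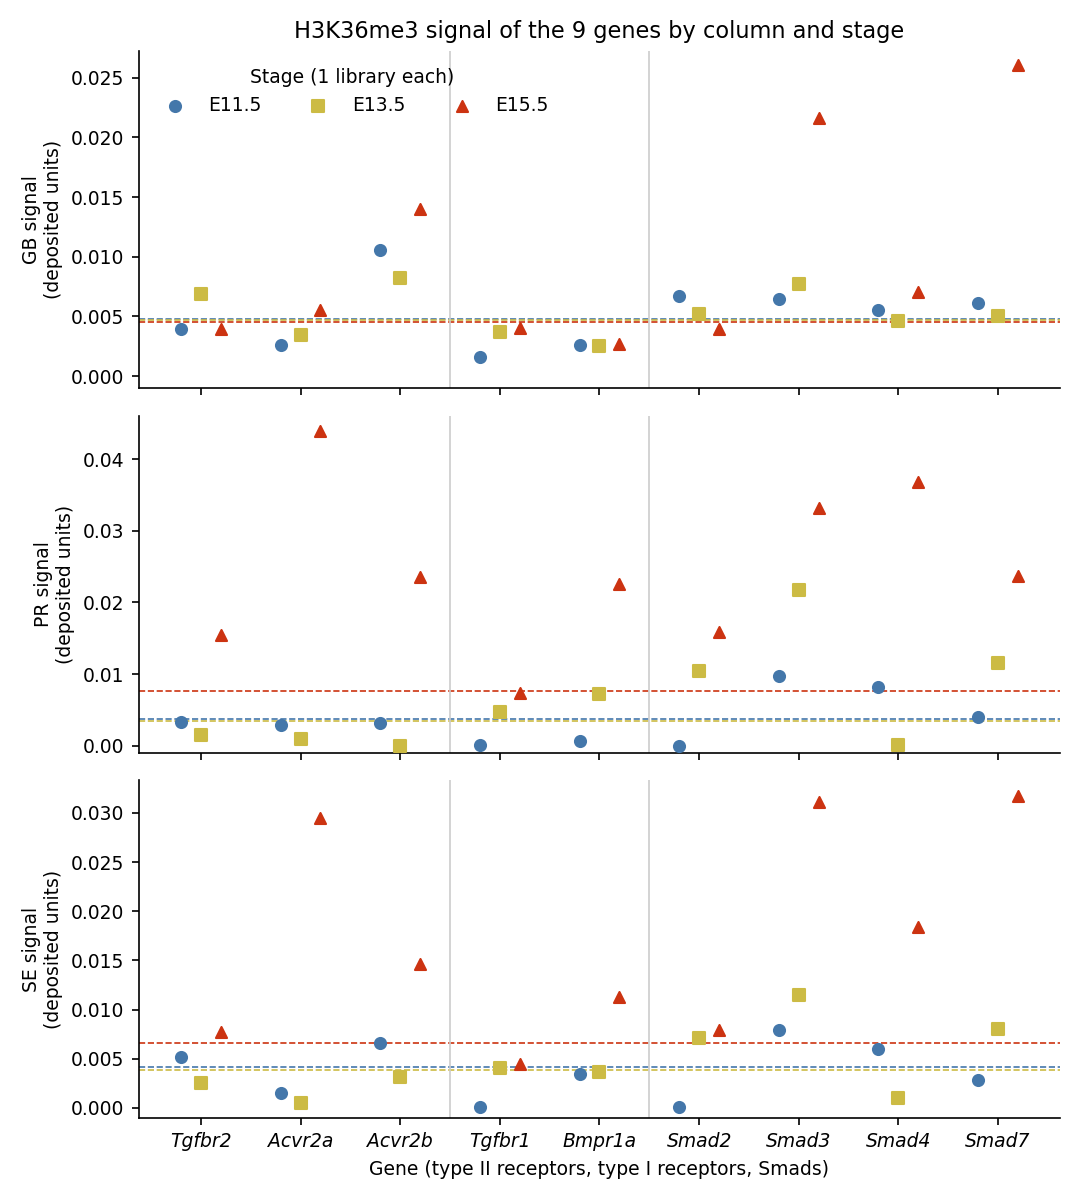
GB, PR and SE signal in deposited units (y axes) of the 9 genes (x axis, grouped into type II receptors, type I receptors and Smads), with 1 point per library and a colour and marker per stage; dashed lines are the medians of the 5619 rows with GB windows of 28570 to 111228 positions, coloured by stage. Smad3 and Smad7 stand apart in GB at E15.5, and the E15.5 point is the highest of the 3 for PR and SE in each gene on the deposited scale, whereas after quantile normalization Smad2 and Tgfbr1 in both columns, and Smad3 and Smad7 in PR, were lower at E15.5 than at E13.5.

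Over the 9 genes, the median GB percentile among all rows was 60.8, 58.4 and 61.0 in stage order. The spread between genes was widest at E15.5, where the highest GB was 9.68 times the lowest. At E11.5 it was 6.64 times and at E13.5 3.20 times the lowest. Among the 5619 rows with GB windows of 28570 to 111228 positions, the gap between lower and upper decile was also widest at E15.5. Those deciles were 0.00202 and 0.00939 at E11.5, 0.00212 and 0.00875 at E13.5, and 0.00114 and 0.0111 at E15.5. GB was highest at E15.5 in 5 of the 7 genes that reached the floor described below, against 41.9% of all rows that did, though 1 of the 5, Acvr2b, was below its E11.5 level after quantile normalization. None of the 9 was listed at 0 in GB. Of all identified rows 12.9, 14.8 and 20.3% were, in stage order, but of the 5619 rows only 0, 0.0534 and 0.481%. Rows listed at 0 in at least 2 libraries have no recovered length. The 5619 rows and percentiles among rows of like length therefore leave such rows out.

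**Figure D2:**
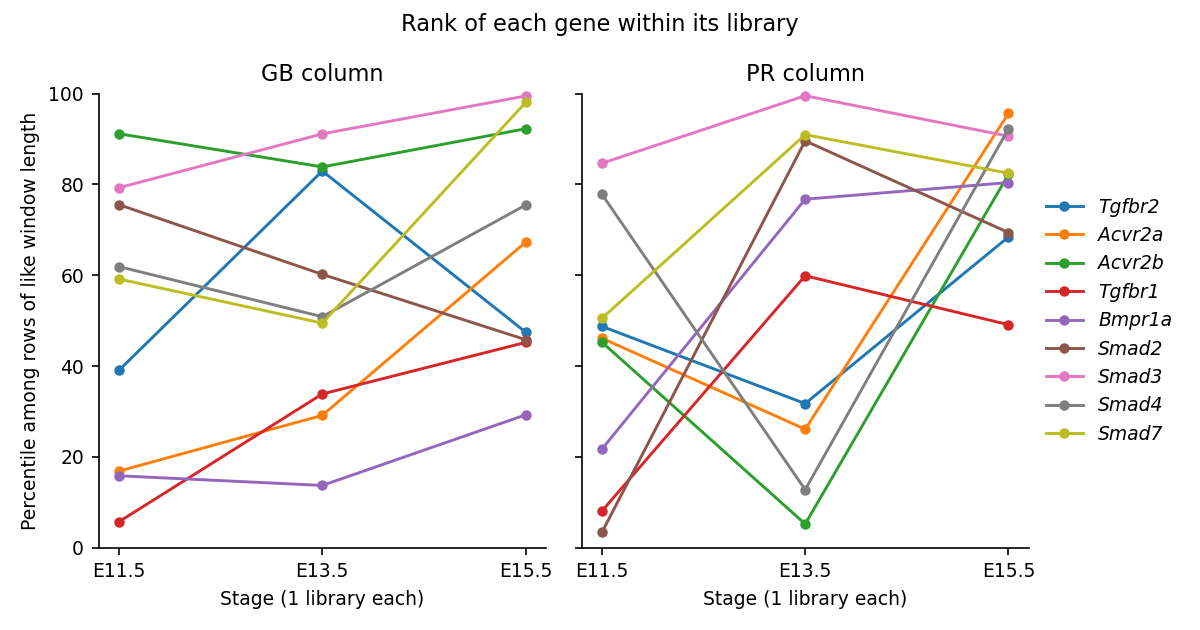
Percentile of each of the 9 genes among rows of like GB window length (y axis) by stage (x axis, 1 library each), for GB on the left and PR on the right. In GB, Smad3 and Smad7 reach 99.5 and 98.0 at E15.5 while Smad2 declines, and in PR Acvr2a, Acvr2b and Smad4 are low at E13.5 and high at E15.5.

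PR signal gave another picture, with each of the 9 genes highest at E15.5 on the deposited scale, although Smad2, Smad3, Smad7 and Tgfbr1 were lower than at E13.5 after quantile normalization. For the type II receptors, Acvr2a had PR of 0.00297, 0.000948 and 0.0439 in stage order, the last being the highest PR of the 9 genes. Acvr2b had 0.00318 at E11.5, was listed at 0 at E13.5 and had 0.0236 at E15.5. Tgfbr2 had 0.00335, 0.00151 and 0.0155. The type II receptors were thus each lowest in the E13.5 library, and their percentiles among all rows at E15.5 were 95.3 for Acvr2a, 83.3 for Acvr2b and 71.6 for Tgfbr2.

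The type I receptors had low PR signal at E11.5, at percentiles 8.99 for Tgfbr1 and 21.0 for Bmpr1a among all rows. Tgfbr1 had 5.33e-05, 0.00469 and 0.00739 in stage order, and Bmpr1a had 0.000648, 0.00726 and 0.0226. The E11.5 value of Tgfbr1 is 2 of the smallest steps in which that library counts. At E15.5 Bmpr1a stood at percentile 82.3 among all rows and Tgfbr1 at 54.2, the lowest of the 9 genes.

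Among the Smads, Smad3 had the highest PR at the earlier stages, with 0.00977, 0.0217 and 0.0332. Its percentile among all rows was 80.7, 98.8 and 90.7, so its rank was highest at E13.5 although its value was highest at E15.5. Smad7 had PR of 0.00405, 0.0116 and 0.0237 and likewise ranked highest at E13.5, at percentile 89.5, against 50.8 and 83.4. Smad2 was listed at 0 at E11.5 and had 0.0105 and 0.0159 after that, at percentiles 86.6 and 72.3. Smad4 had 0.00815 and 0.0369 at the outer stages but only 5.50e-05 at E13.5, which is again 2 steps. Smad2 and Smad4 were thus near or at 0 in different libraries.

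Over the 9 genes the median PR percentile among all rows was 44.8, 57.4 and 83.3 in stage order. Each of the 9 was above the middle of all rows at E15.5, and 8 were above that of rows of like length. Tgfbr1 stood at percentile 49.1 among rows of like length and 41.3 among rows above 0. Across the whole table, PR was highest at E15.5 in 53.3% of the 19978 rows above the floor, and in 58.4% of those with GB windows as long as the members'. The floor of a column is its median over the 3 libraries together, 0.00413 for GB, 0.00407 for PR and 0.00460 for SE. The 9 of 9 therefore stands beside a background in which most rows go the same way. The E15.5 library also had more rows listed at 0 in PR than the others, 22.1% against 7.59 and 11.9%, and the part of such differences between libraries in these values was not tested.

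The SE window includes PR and 6000 further positions, and the part outside PR was taken by subtraction. Smad7 and Smad3 had strong signal there at E15.5, with 0.00167, 0.00441 and 0.0397 for Smad7 and 0.00615, 0.00117 and 0.0291 for Smad3 in stage order. Acvr2a was listed at 0 there at both earlier stages and had 0.0151 at E15.5. Acvr2b had 0.00998, 0.00631 and 0.00557, a decline where its PR was highest. Smad2, Smad4 and Bmpr1a were at 0 outside PR at E15.5, and Tgfbr2 had 5.50e-05, so that nearly all SE signal of these 4 genes at E15.5 lay in PR. Of all identified rows, 8.70, 11.7 and 32.1% were at 0 outside PR in stage order.

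On the deposited scale SE was highest at E15.5 in each of the 9 genes, but after quantile normalization Smad2 and Tgfbr1 were lower at E15.5 than at E13.5, with log2 ratios of -0.53 and -0.21. On the deposited scale this was 8 of 8 genes above the floor, where 54.5% of all such rows were highest at E15.5. Smad7 had SE of 0.00286, 0.00801 and 0.0317 in stage order and Smad3 had 0.00796, 0.0114 and 0.0311. Acvr2a had 0.00148, 0.000474 and 0.0295. Among all rows at E15.5 these were percentiles 95.8, 95.6 and 94.9, and the lowest of the 9 was Tgfbr1 at 43.5. The median SE percentile of the 9 genes was 40.1, 43.9 and 78.2 in stage order.

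Within a library, the ratio of PR to GB is free of that library's scale. Its median over the 9 genes was 0.658, 1.26 and 3.93 in stage order, and 3, 5 and 8 of the 9 genes were above 1. Over all identified rows above 0 in both columns the median was 0.827, 0.827 and 1.42, and 42.2, 42.0 and 60.8% were above 1. Over such rows with GB windows as long as the members' the median was 0.816, 0.831 and 2.16. Of these, 42.7, 43.0 and 69.5% were above 1, so most rows of such lengths were also above 1 at E15.5. These sets leave out rows at 0, whereas the medians of the 9 genes include Smad2 at E11.5 and Acvr2b at E13.5, each with a ratio of 0. At E15.5 the ratio was highest in Bmpr1a, at 8.40, and in Acvr2a, at 7.95. Smad4 followed with 5.23, Smad2 with 3.99 and Tgfbr2 with 3.93. Tgfbr1, Acvr2b and Smad3 had 1.84, 1.68 and 1.54, and Smad7 alone was below 1, at 0.911. The genes with the largest body signal at E15.5 were among those with the lowest ratio, of which GB is the denominator.

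The window sums, each value times its number of positions, show how much of a body value PR and SE could hold at most if they lay wholly inside the gene. For Acvr2a the GB sum at E15.5 was 256.5 above that at E11.5, and the PR sum was 245.5 above it. With the whole PR sum taken out of the E15.5 body alone, GB of Acvr2a was 0.971 times that at E11.5, against 2.09 times as deposited. With the PR sum of each stage taken out of its own body, GB of Acvr2a was 0.00257 at E15.5 and 0.00244 at E11.5. For Acvr2b, taking PR out of the E15.5 body alone turned 1.33 times into 0.994 times. With PR taken out at both stages, GB of Acvr2b was 0.0105 at E15.5 and 0.0101 at E11.5. For Smad3 the GB sum at E15.5 was 1691 above that at E11.5 and the PR sum 141 above it. Even with the whole SE sum taken out of the E15.5 body, Smad3 had 2.84 times its E11.5 body signal and Smad7 2.07 times. The higher body signal of Smad3 and Smad7 thus lay at least in part outside the PR and SE windows. For Acvr2a the PR window could hold most of the difference from E11.5 and the whole difference from E13.5. For Acvr2b it could hold most of the difference from E11.5, with a PR sum gain of 122.6 against a GB sum gain of 139.2. From E13.5 it could hold less of the difference. GB of Acvr2b was still 1.28 times that at E13.5 with the whole PR sum taken out of the E15.5 body. It was 1.17 times with the whole SE sum taken out.

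Over the first interval, from E11.5 to E13.5, each gene was compared as log2 of the later over the earlier value after adding 0.001 to each. A gene entered where the higher of the values compared reached the floor, and a difference of at least 2-fold was counted. In GB, 6 of the 9 genes entered, and 0 were higher and 0 lower by that measure. Of all 16346 rows that entered, 17.2% were higher and 19.4% lower, and of those with GB windows as long as the members', 5.17 and 5.56%. The largest GB difference among the genes that entered was in Tgfbr2, 1.75 times higher at E13.5 with a log2 ratio of 0.68. Tgfbr1 did not reach the floor in either library and had a log2 ratio of 0.87. In PR, 6 genes entered, of which 5 were higher (Smad2, Smad3, Smad7, Tgfbr1 and Bmpr1a) and 1 lower (Smad4), against 28.7 and 32.8% of all rows. The type II receptors did not reach the PR floor in this interval, and each had less PR at E13.5. In SE, 2 of the 6 that entered were higher and 1 lower, against 19.9 and 24.8% of all rows.

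Over the second interval, from E13.5 to E15.5, 2 of the 7 genes that entered in GB were higher and 0 lower, against 27.6 and 22.1% of all rows and 11.2 and 13% of rows with windows as long as the members'. They were Smad7, at 5.15 times and a log2 ratio of 2.16, and Smad3, at 2.79 times and 1.37. The share of higher genes is near that of all rows, and after quantile normalization Smad3 fell short of 2-fold with a log2 ratio of 0.78. Tgfbr2 had the lowest GB ratio, 0.570 times, with a log2 ratio of -0.68. In PR all 9 genes entered, 5 were at least 2-fold higher and 0 lower, against 52.2 and 24.7% of all rows, so the share of these genes is near that of the table. The 5 were Smad4, Acvr2b, Acvr2a, Tgfbr2 and Bmpr1a, with log2 ratios of 5.17, 4.62, 4.53, 2.72 and 1.51. The other 4 already had more PR at E13.5 than at E11.5, and their log2 ratios ran from 0.56 to 0.97. After quantile normalization these 4 (Smad2, Smad3, Smad7 and Tgfbr1) lay below 0. In SE, 7 of 8 were higher and 0 lower, against 45.7 and 17.9% of all rows.

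The span from E11.5 to E15.5 uses the same libraries as both intervals. In GB, 2 of the 6 genes that entered were higher and 0 lower, against 26.5 and 22.8% of all rows, again a share near that of the table. Of 4142 rows with windows as long as the members', 475 were higher and 559 lower. These were again Smad7, at 4.23 times and a log2 ratio of 1.92, and Smad3, at 3.36 times and 1.61. Acvr2a was 2.09 times higher but fell short on the log2 scale with the added 0.001, at 0.84, and Tgfbr1 was 2.53 times higher below the floor. Smad2 was at 0.597 times, with a log2 ratio of -0.62. When each library was divided by its median GB, 4 genes passed 2-fold instead of 2. In PR, 9 of 9 genes were at least 2-fold higher, against 50% of all 17716 rows and 55.6% of rows with windows as long as the members', and 26% of all rows were lower. The log2 PR ratios ran from 1.67 for Smad3 to 4.08 for Smad2, with a median of 2.56, against 1.001 over all rows that entered. The log2 PR ratio of each of the 9 genes also lay above 0 after division by the median GB and after quantile normalization. The latter moved the median over all rows by -0.89 and left 7 genes at least 2-fold higher, with Smad3 at 0.53 and Smad4 at 0.94. In SE, 7 of 8 genes were higher and 0 lower, against 42.7 and 19.7% of all rows.

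**Figure D3:**
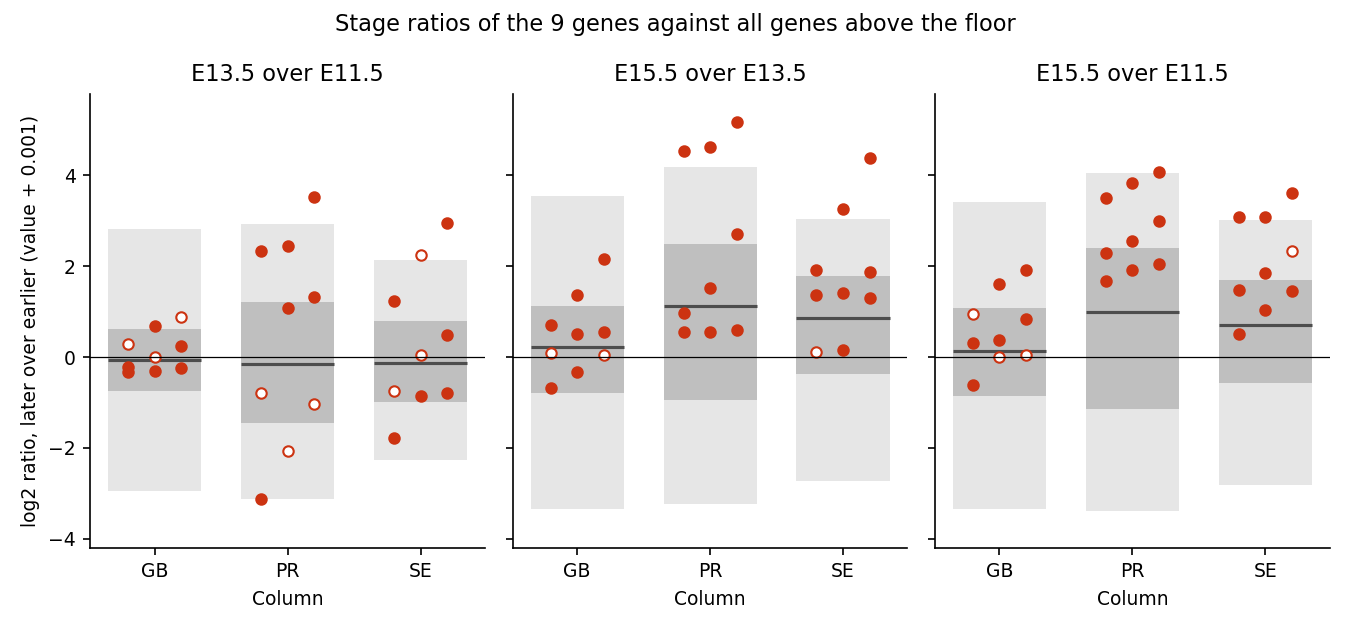
Stage ratios, as log2 of later over earlier value after adding 0.001 (y axis), for GB, PR and SE (x axis) in the 3 comparisons. Red points are the 9 genes, open where the gene did not reach the floor; dark and light grey bars span the 25th to 75th and the 5th to 95th percentile of all rows above the floor, with the median as a line. For E15.5 over E11.5 in PR, the 9 points lie between 1.67 and 4.08, all above the row median of 1.001, while in GB they lie between -0.62 and 1.92.

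**Figure D4:**
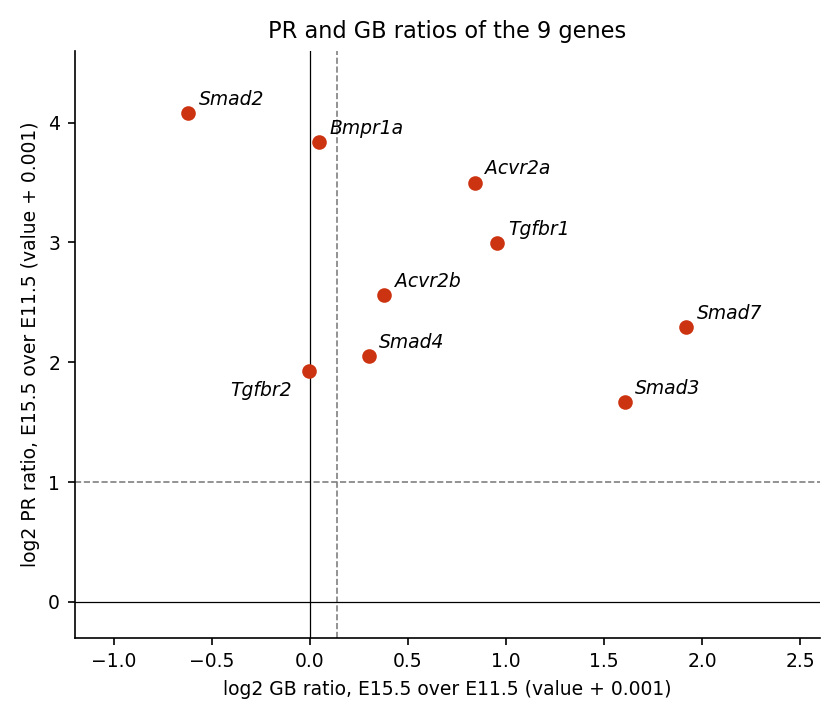
log2 PR ratio (y axis) against log2 GB ratio (x axis), E15.5 over E11.5 after adding 0.001, for the 9 genes with 1 point per gene; dashed lines are the medians of all rows above the floor in each column, 0.14 for GB and 1.001 for PR. Smad3 and Smad7 have the highest GB ratios, 1.61 and 1.92, whereas Smad2 and Bmpr1a have the highest PR ratios, 4.08 and 3.84, with GB ratios of -0.62 and 0.05.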

How the data were processed

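Per the labels, H3K36me3 CUT&Tag was run on 1 library per stage, and alignment used Bowtie2 (2.4.2) and mm10, per the submitters' processing notes. Filters, scaling and gene models: not given in the sources used here. Signal tables were deposited: the authors made 3, 1 per library, each with the columns GB, PR and SE and 25493 rows. Of these rows, 1175 in each carry no identifier and were left out. PR sums were whole multiples of a single step per library (0.16188, 0.16743 and 0.16292 in stage order, within 0.0061). SE sums were not checked in this way over the table. A negative or negligible remainder of SE outside PR was set to 0. GB window lengths were the shortest at which all libraries above 0 gave whole steps. On 1500 simulated windows above 0 in all 3 libraries, 92.9% were recovered exactly. Rows at 0 in 1 library were also given a length, and recovery for such rows was not simulated. What a step is in reads is unknown, so the depth behind each value is unknown and no counting interval is given. Values were compared as deposited, with a pseudocount of 0.001 and the floors given in the text. No test was run. The members and lists were chosen with earlier results of these data known. The naming rule was all 9 members and no other gene. A list of other pathway genes and of cell type markers could not be applied, because the rows are not paired with symbols, and those genes were not analysed here. Percentiles are the share of rows with a lower value, with ties at a weight of 0.5. Python 3.11.15, numpy 2.4.6 and pandas 2.3.3 were used. Alternatives were the pseudocount, the scaling, the floor, the fold, and the rows ranked against.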

Additional observations from a re-analysis of the deposited data

How the results depend on the processing

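With 1 library per stage, unknown depth and no control library, every comparison here is a description. No paired analysis was possible because no stage has a second library. Of 129 recomputed counts, percentiles and ratios over the 9 genes, 95 stayed within the bound set for their kind, none of them a percentile. For counts and ratios the bound was a move of at most 1.5 times. For percentiles it was the binomial interval of the value first given, taken over all identified rows. That interval is narrow because the rows are many, and it measures no spread among the 9 genes or between libraries. Each recomputed percentile fell outside it. The GB counts of higher genes at E15.5, 2 against either earlier stage, became 1 against E13.5 after quantile normalization, which left out Smad3, and 4 against E11.5 after division by the median GB. A 1.5-fold threshold gave 1 gene higher in GB for the first interval, 1 lower for each comparison with E15.5, and 3 lower in SE for the first interval. For the first interval in PR, a pseudocount of 0.005 left 2 genes higher and no floor gave 3 lower. In SE for that interval, lower genes numbered 2 with a pseudocount of 0.0001 or quantile normalization and 0 with 0.005, which left 1 higher. Quantile normalization left 4 genes higher in SE in both comparisons with E15.5. The cause was not tested.

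Median percentiles in stage order became 55.0, 51.2 and 51.1 for GB, 40.2, 51.7 and 78.6 for PR and 38.9, 42.2 and 75.5 for SE among rows above 0. Among rows of like length they were 59.2, 50.9 and 67.3 for GB, 46.1, 59.9 and 82.2 for PR and 44.6, 47.3 and 78.8 for SE. With the part of SE outside PR in place of PR, the median ratio to GB was 0.529 at E13.5 and 0.391 at E15.5, by construction another window. Division by the median GB moved the median log2 GB ratio of all rows by 0.16 and 0.19 in the comparisons with E15.5, and quantile normalization by -0.25 and -0.18. The direction of Tgfbr2, Bmpr1a and Acvr2b in GB changed under a scaling in at least 1 comparison. Comparing rows with windows as long as the members' was chosen after seeing the data.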
